A study of Mus musculus with 5 samples.

Results

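The 10 genes described here are the IL-1 family and inflammasome genes Il1a, Il1b, Il1rn, Il18, Il1r1, Il1rap, Nlrp3, Pycard, Casp1 and Gsdmd. They were chosen by gene symbol, and all 10 had a row and an adjusted p-value among the 51912 genes that the authors deposited, 17420 of them with such a value. The study sequenced mRNA of C57BL/6 mice, in 2 libraries labelled sham and 3 labelled stroke. The protocol shared by the 5 samples describes ketamine (100 mg/kg) and xylazine (10 mg/kg) anaesthesia, a body temperature held at 37 °C, and closure of the middle cerebral artery for 30 minutes with a coated filament. Animals whose cerebral blood flow fell by at least 80% were included, and movement was scored at 24 hours. The sources used here do not give what was done to the sham animals, the sex and age of the mice, the tissue or when it was taken. Whether each library is 1 mouse is not given either, so p-values measure only the spread between these samples, which may in part be technical.

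Interleukin-1 alpha and beta, encoded by Il1a and Il1b, are inflammatory cytokines that bind the same receptor, Il1r1, which signals together with the accessory chain Il1rap. Il1rn encodes the receptor antagonist, which occupies Il1r1 without signalling. Interleukin-1 beta and interleukin-18 are made as inactive precursors. In the inflammasome, the sensor Nlrp3 and the adaptor Pycard (ASC) activate the protease Casp1, which cleaves both precursors and the pore-forming protein Gsdmd. Cleavage and release act on proteins and were not measured here, since the data are mRNA levels. In the brain, microglia and infiltrating myeloid cells are known sources of interleukin-1, and endothelial cells are known to carry its receptor.

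Il1a, Il1b and Il1rn lie on chromosome 2 (GRCm38), Il1a and Il1b as neighbours on the minus strand at chr2:129299610-129309972 and chr2:129364570-129371139, and Il1rn on the plus strand at chr2:24336853-24351494. Their promoters are shown because these genes had the 3 largest fold changes among the members. Each run is the 250 bases before the RefSeq transcription start (GRCm38.p6), 5′ to 3′ on the strand of the gene. Il1rn has 3 RefSeq starts, and the one nearest to the start of the annotated gene is used. The regions are chr2:129309973-129310222 on the minus strand for Il1a, chr2:129371140-129371389 on the minus strand for Il1b and chr2:24336610-24336859 on the plus strand for Il1rn. Capitals mark matches to the TATA box, searched as TATAAA, and to the binding motif of the AP-1 transcription factors, searched as TGANTCA.
Il1a: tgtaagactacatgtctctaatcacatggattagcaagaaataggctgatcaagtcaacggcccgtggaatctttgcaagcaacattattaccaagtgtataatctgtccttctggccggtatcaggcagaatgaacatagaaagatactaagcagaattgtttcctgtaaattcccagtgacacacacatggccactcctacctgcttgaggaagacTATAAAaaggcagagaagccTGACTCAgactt
Il1b: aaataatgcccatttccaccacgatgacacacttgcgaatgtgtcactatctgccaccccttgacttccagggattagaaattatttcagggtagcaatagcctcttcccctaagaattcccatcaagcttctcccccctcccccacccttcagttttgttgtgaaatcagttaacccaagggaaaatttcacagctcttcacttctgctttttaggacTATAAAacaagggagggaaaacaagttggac
Il1rn: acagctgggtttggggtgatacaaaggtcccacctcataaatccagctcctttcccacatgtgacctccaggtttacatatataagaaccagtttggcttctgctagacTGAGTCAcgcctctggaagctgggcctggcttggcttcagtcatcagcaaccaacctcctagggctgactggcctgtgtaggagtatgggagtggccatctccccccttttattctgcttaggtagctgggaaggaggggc

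Il1a and Il1b carried TATAAA 32 and 31 bases before the start. Il1a carried the AP-1 type match TGACTCA 12 bases and Il1rn its other form TGAGTCA 141 bases before the start. Searched on both strands, TATAAA was found in 12.4% and TGANTCA in 6.75% of 32851 mouse promoters of the same length. TTNNGCAA (C/EBP type, 9.56% of promoters) was not found in these 3 windows. The matches shown do not overlap one another, and a match is a description of the sequence only.

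Reads per library are not a column of the authors' deposited table, but for 9 of the 10 members 1 set of 5 whole numbers of reads gave the deposited mean, fold change and standard error. For Il1rap, 2 sets did so and neither was used. Normalized reads below are these reads divided by the size factor of the library, the depth correction of the authors' fit. Stroke libraries A, B and C are ordered by size factor (1.16, 1.13 and 1.12) and cannot be tied to the replicate numbers of the labels. Of the sham libraries, one is called the deeper (0.945) and the other the shallower (0.734).

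The libraries differed in ways that bear on the members. Summed over the 5 red cell markers, normalized reads came to 2801 in the deeper sham library, to 474 in the shallower and to 67.2 to 230 in the stroke libraries, and summed over 5 of 6 choroid plexus markers they were 1561 in the deeper sham library against 211 to 382 in the other 4. Microglia markers were present in every library: the sum over 8 of 10 was 1623 in the shallower sham library, 3644 in the deeper one and 2773 to 3265 after stroke. Of these 10 markers 0 were called at an adjusted p below 0.05, against 1.56% of all tested genes. Markers of neutrophils were sparse, with a sum over 10 genes of 21.8 and 103 in the sham and 75.2 to 156 in the stroke libraries, and with the defining marker Ly6g at 0 in 4 libraries. The sum over 5 of 7 infiltrating monocyte markers was 13.6 and 16.9 in sham and 22.5 to 27.4 in stroke, with Ly6c2 at 0 in 3 libraries. Neuron markers had means of 5689 to 65803 normalized counts in the authors' deposited table, as brain tissue has. Fewer cells of a type and less RNA per cell cannot be told apart in such bulk samples, and the part of these cell types in the results below was not tested.

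No member of the IL-1 family or the inflammasome was called between stroke and sham at an adjusted p below 0.05. Over all tested genes, 1.56% were called in the authors' deposited table. Il1a and Il1r1 had unadjusted p-values below 0.05 with higher values in stroke, 2 of 10 members, against 4.84% of all tested genes. None had an unadjusted p below 0.05 with lower values, against 5.66% of all tested genes. Fold changes were positive for 9 members and negative for Il1rap alone, while 47.2% of all tested genes had a positive one. The median log2 fold change of the members was 0.58, against -0.02 over all tested genes. The standard errors were wide, with a median of 0.73 over the members and 0.33 over all tested genes, and 7 of the 10 members had a mean under 50 normalized counts.

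**Figure D1:**
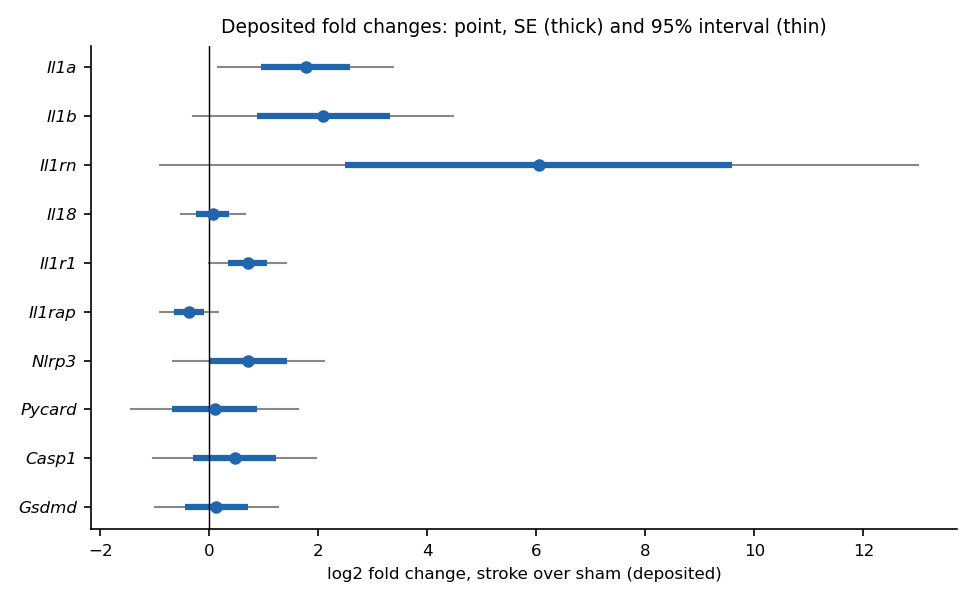
Log2 fold change of stroke over sham for the 10 members (horizontal axis) in the authors' deposited table, with the standard error as a thick bar and the 95% interval as a thin line. The intervals of Il1a and Il1r1 lie just above 0, and that of Il1rn, from -0.91 to 13.0, is the widest.

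The levels of the members spanned a wide range when divided by exonic length. On the scale of mean normalized counts per kilobase of exon, Il18 was highest (249.9), followed by Il1rap (102), Il1r1 (52.5) and Casp1 (22.9). Il1a (14.1) and Gsdmd (13.5) lay close together, and so did Pycard (9.40), Nlrp3 (9.08), Il1rn (7.78) and Il1b (7.47). The mRNAs of the receptor chains were thus more abundant per length than those of Il1a and Il1b. Neighbours in the lower part of this order were not separated, since each of these genes varied between libraries by more than the steps between their means. The Il1rn mean came almost wholly from 1 library.

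Among the ligands, Il1a had normalized reads of 13.0, 52.2 and 51.1 in stroke libraries A, B and C, with 10.6 for the deeper and 12.3 for the shallower sham library. All 3 stroke libraries lay above both sham libraries, but library A by less than 1 read's worth. The authors' deposited table listed Il1a at a log2 ratio of 1.76 (SE 0.82, p = 0.0316, adjusted p = 0.392). With library A left out, the log2 ratio of group means was 2.08, and with library B left out 1.41.

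Il1b had 3.46, 13.3 and 44.8 normalized reads in stroke libraries A, B and C, against 4.23 and 5.45 in the deeper and shallower sham libraries. These come from 4, 15 and 50 reads in stroke and 4 and 4 in sham. Stroke library A lay below both sham libraries, so the groups overlapped. In the authors' deposited table, the log2 fold change for Il1b was 2.09 (SE 1.22, p = 0.0870, adjusted p = 0.592). Without stroke library C the log2 ratio of group means was 0.68.

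Il1rn was the member with the largest fold change and the largest spread. Its reads were 0, 8 and 230 in stroke libraries A, B and C and 2 and 0 in the deeper and shallower sham libraries. As normalized reads these were 0, 7.07 and 206 in stroke, and 2.12 and 0 in sham. A count of 0 allows up to 3 reads, or 2.59 normalized reads in stroke library A and 4.09 in the shallower sham library. The ratio of pooled reads, stroke over sham, was 58.7, with a 95% interval (exact binomial) of 16.1 to 487 that covers counting error only. Without stroke library C the ratio was 2.93, with an interval of 0.586 to 28.4, which includes 1. The authors' deposited table listed Il1rn at a log2 ratio of 6.04 (SE 3.55, p = 0.0885, adjusted p = 0.594).

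Il18 behaved unlike the other ligands in level and in spread. Its normalized reads were 257, 304 and 227 in stroke libraries A, B and C and 291 and 210 in the deeper and shallower sham libraries, so that the deeper sham library lay within the range of the stroke libraries and the shallower below it. The authors' deposited table listed Il18 at a log2 ratio of 0.07 (SE 0.30, adjusted p = 0.989). The 95% interval, from -0.53 to 0.66, spans 0. The log2 ratio of group means for Il18 turned to -0.05 without stroke library B and to -0.15 without the shallower sham library. Il18 overlaps Bco2 on the opposite strand, which had a mean of 54.7 normalized counts in the authors' deposited table, and the sources used here do not give the strand setting of the counting.

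**Figure D2:**
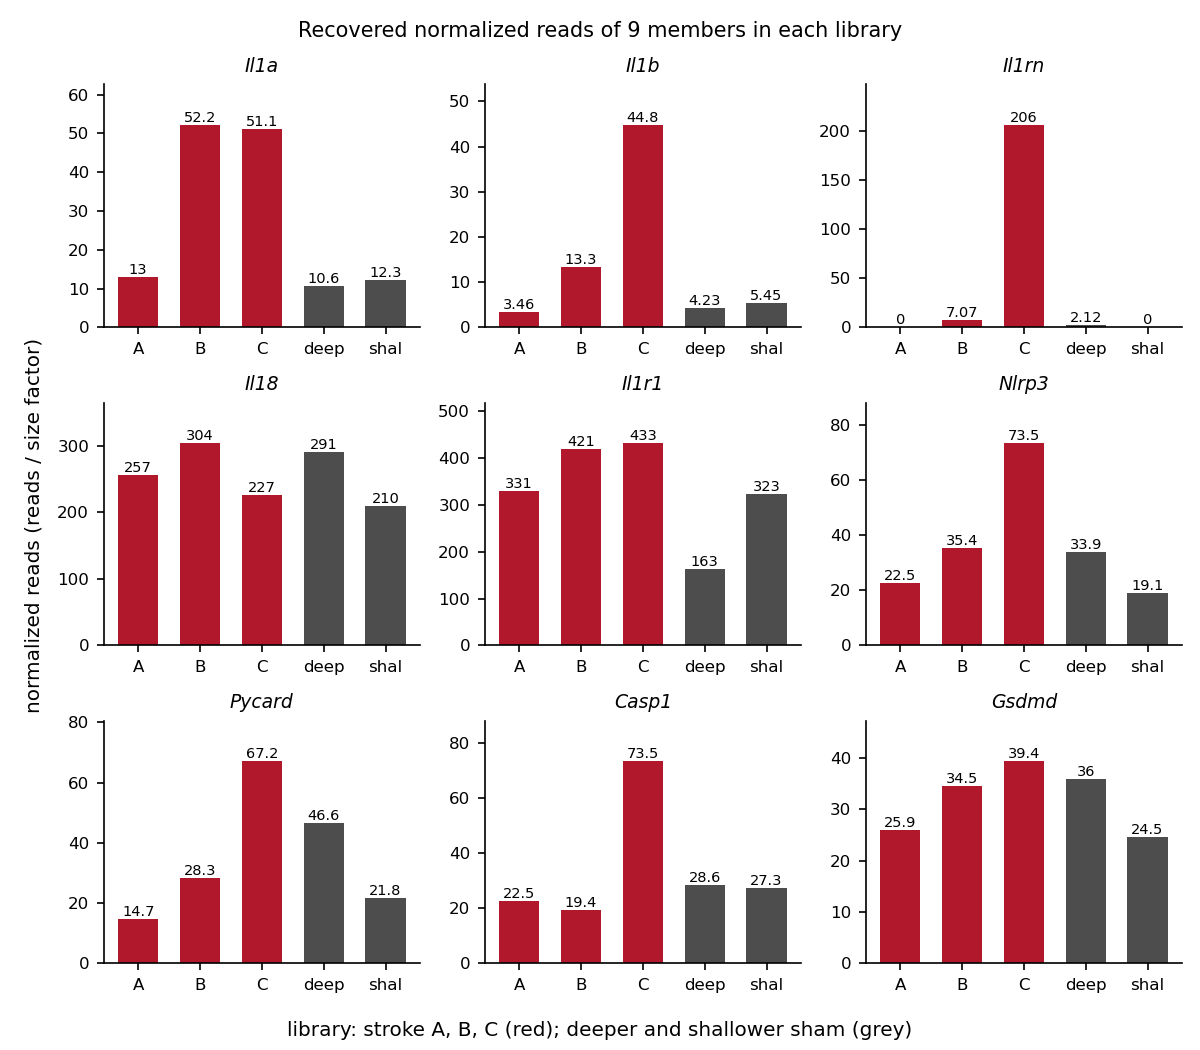
Normalized reads (reads divided by size factor) of 9 members in stroke libraries A, B and C (red) and in the deeper and shallower sham libraries (grey), 1 bar per library, each panel with its own axis from 0. Stroke library C holds the highest bar in 7 panels, and Il1rn stands at 206 there against 0 to 7.07 in the other libraries.

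Of the receptor chains, Il1r1 had normalized reads of 331, 421 and 433 in stroke libraries A, B and C, with 163 for the deeper and 323 for the shallower sham library. Each stroke library exceeded both sham libraries, library A by 8 normalized reads over the shallower sham library. In the authors' deposited table the log2 ratio for Il1r1 was 0.70 (SE 0.36, p = 0.0497, adjusted p = 0.474), with a 95% interval from 0.00094 to 1.41. Il1r1 is the only member that overlaps a gene on its own strand, Gm38070, which had a mean of 6.05 normalized counts in that table. The sham libraries differed from each other by more than the stroke libraries did. Without the shallower sham library Il1r1 was called by limma on log2 of normalized reads, with a log2 fold change of 1.26 (adjusted p = 0.0249), where 2.58% of 8766 genes were called. With all libraries it was not called (0.77, adjusted p = 0.608), where 0.0114% of genes were called. The call without the shallower sham library rests on the deeper one alone, which stood apart in choroid plexus and red cell genes. Without the deeper sham library limma gave Il1r1 a log2 fold change of 0.28. The log2 ratio of group means for Il1r1 was then 0.29. Calls of limma without the deeper sham library are not used, since that fit too rests on a lone sham library. With 1 sham library left, the spread between sham libraries cannot be measured, so no conclusion is drawn from the call.

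Endothelial markers, which mark a cell type known to carry the receptor, are given beside Il1r1. The sum over 9 of 10 endothelial markers was 3563, 4422 and 4853 in stroke libraries A, B and C. In the deeper and shallower sham libraries it was 2983 and 4736. Of the 10 markers 0 were called, against 1.56% of all tested genes. An unadjusted p below 0.05 was found for 3 (Cdh5, Esam and Flt1), all higher, against 4.84% of all tested genes with higher values. Slco1a4, a transporter, made up 2179 of the sum in the shallower sham library and 740 in the deeper one. In stroke libraries A, B and C it had 571, 526 and 1294. Its log2 ratio in the authors' deposited table was -0.87. Without Slco1a4, left out after its values were seen, the sums were 2991, 3896 and 3558 in stroke and 2243 and 2557 in sham. Both sham sums then lay below every stroke sum, which the full sum did not show. The separation thus depends on leaving out a marker that was lower in stroke, and no conclusion is drawn from it. Of the 9 markers, 4 exceeded both sham libraries in every stroke library. Such separation was found in 10.5% of the 8766 genes with a mean of 10 to 400, a range that some of these markers exceed. The part of endothelial RNA in the Il1r1 values was not tested. Il1rap, the shared accessory chain, had a mean of 1164 normalized counts in the authors' deposited table, with a log2 ratio of -0.37 (SE 0.27, p = 0.176, adjusted p = 0.757). It was the one member with a negative fold change, with a 95% interval from -0.90 to 0.16.

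Of the inflammasome genes, none had an unadjusted p below 0.05. Nlrp3, the sensor, had 22.5, 35.4 and 73.5 normalized reads in stroke libraries A, B and C, against 33.9 and 19.1 in the deeper and shallower sham libraries. Casp1, the protease, had 22.5, 19.4 and 73.5 against 28.6 and 27.3. Pycard, the adaptor, had 14.7, 28.3 and 67.2 against 46.6 and 21.8. In all 3 genes stroke library C was the highest of the 5 libraries.

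The log2 fold changes in the authors' deposited table were 0.72 (SE 0.71, adjusted p = 0.877) for Nlrp3, 0.46 (SE 0.76, adjusted p = 0.947) for Casp1 and 0.10 (SE 0.78, adjusted p = 0.991) for Pycard. Without stroke library C, the log2 ratio of group means was 0.12 for Nlrp3, and turned to -0.40 for Casp1 and -0.65 for Pycard. The positive direction of Casp1 rested on that library alone, and that of Pycard also turned without the shallower sham library (-0.33). Pycard also had a negative log2 fold change, -0.06, in limma on all 5 libraries. Pycard overlaps Gm45205 on the opposite strand, which had a mean of 14.4 normalized counts in the authors' deposited table. Il1a, Il1b and Il1rap also overlap genes on the opposite strand (Gm14023, Il1bos and Gm20319), with means of 5.01, 2.48 and 0.53 there.

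Gsdmd, the pore-forming target of Casp1, was the most even of the inflammasome genes. It had 25.9, 34.5 and 39.4 normalized reads in stroke libraries A, B and C, against 36.0 and 24.5 in the deeper and shallower sham libraries. In the authors' deposited table, Gsdmd stood at 0.13 on the log2 scale (SE 0.58, adjusted p = 0.988). The 95% interval, from -1.01 to 1.26, spans 0 and is wide in both directions. Its log2 ratio of group means turned to -0.11 without the shallower sham library and lay at -0.0025 without stroke library C.

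Across the members, the pattern that recurred was a high value in stroke library C. Stroke library C was the highest of the 5 libraries for 7 of the 9 members with reads per library, against 14.1% of 8766 tested genes with a mean of 10 to 400. The exceptions were Il1a, highest in library B by 1 normalized read, and Il18. Library A lay below the higher sham library for 7 of 9 members, a share near that of all 8766 genes (78.9%). Only Il1a and Il1r1, 2 of 9, exceeded both sham libraries in each stroke library, which 10.5% of the 8766 genes did. None lay below both, which 15.5% of the genes did.

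The share of a gene's normalized reads that fell in stroke library C was 95.7% for Il1rn, the highest of all 8766 genes, where the median gene had 19.4%. At least that share fell in the deeper sham library for 6 genes and in the shallower for 33, and in stroke libraries A and B for 0. Il1b had 62.9% (place 24 from the highest), Casp1 42.9% (place 80), Nlrp3 39.9% (place 104), Pycard 37.6% (place 129) and Il1a 36.7% (place 147). Il1r1 had 25.9%, Gsdmd 24.6% and Il18 17.6%, nearer to the median gene. Next to Il1rn stood Sele with 93.8%, the endothelial adhesion molecule E-selectin, and Mmp12 and Mmp3, matrix metalloproteinases, with 91.3% and 91.2%. Genes of myeloid cells were also among the 25 genes with the highest shares, such as the scavenger receptor Msr1 (75.1%), the oxidase subunit Cybb (66.5%) and the lectin receptor Clec7a (65.9%). The genes here other than members and Sele are named after their values were seen.

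**Figure D3:**
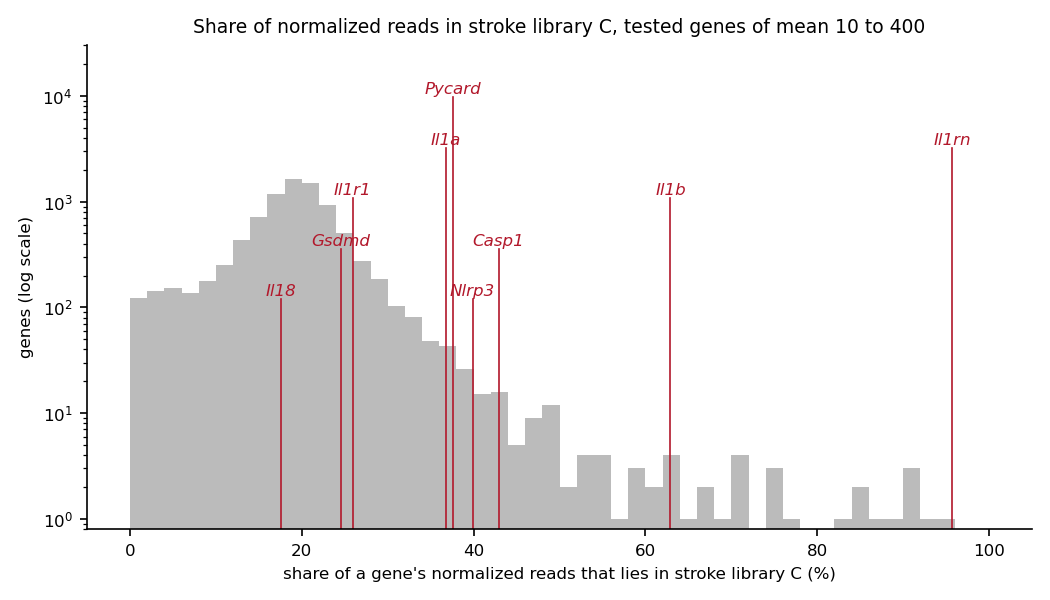
Share of each gene's normalized reads that lies in stroke library C (horizontal axis, percent) for 8766 tested genes with a mean of 10 to 400 (grey histogram, number of genes on a log axis), with 9 members marked in red. Il1rn, at 95.7%, is at the right end, and Il18, at 17.6%, lies left of the median of 19.4%.

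The marker sums for stroke library C are given beside these shares, and hold none of the myeloid genes just named. Its sum of neutrophil markers, 75.2, was the lowest of the stroke libraries, and its sum of infiltrating monocyte markers, 25.1, lay between those of libraries A and B. Its sum of microglia markers, 3239, was close to that of library B. Within that list the genes parted: Cx3cr1, the fractalkine receptor, had 1165 normalized reads in library C against 404 and 545 in libraries A and B, and 906 and 327 in the deeper and shallower sham libraries. P2ry12, a purine receptor of resting microglia, had 241 in library C against 439 and 507. Tmem119, a microglial membrane protein, had 170 against 249 and 349. In the deeper and shallower sham libraries P2ry12 had 421 and 193 and Tmem119 378 and 153, so library C lay between them. Of the other listed markers, Siglech was also lower in library C, with 106 against 229 and 232. C1qa (924 against 902 and 992) and Sall1 (489 against 403 and 466) did not fall below both. Aif1 and Itgam were close to their values in library A. These microglia genes are named after their values were seen, and the part of microglia or other myeloid cells in the members' values was not tested.

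**Figure D4:**
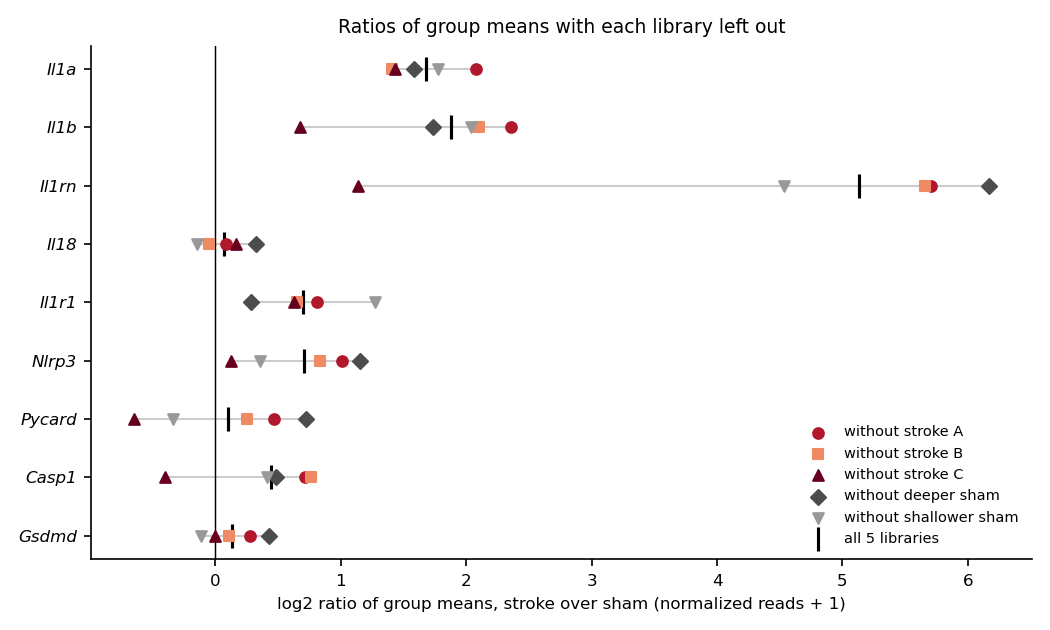
Log2 ratio of group means, stroke over sham, of normalized reads plus 1 (horizontal axis) for 9 members with all 5 libraries (black tick) and with each library left out (symbols). Leaving out stroke library C moves Il1b from 1.88 to 0.68 and Il1rn by the widest step, and brings Casp1 (-0.40) and Pycard (-0.65) below 0.

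The other genes of the pathway were taken from lists of 74 genes in all, of which 57 had an adjusted p-value. Those upstream of the response (other ligands, receptors, signalling and inflammasome genes) had 40 tested members, of which 0 were called, against 1.56% of all tested genes. At an unadjusted p below 0.05, 2 of the 40 were higher in stroke, against 4.84% of all tested genes. At the same threshold 1 of the 40 was lower, against 5.66%. Among the other ligands, Il33, an alarmin of glia and endothelium that is released from damaged cells, was the only one of 6 tested. Il33 had 813, 936 and 932 normalized reads in stroke libraries A, B and C, against 633 and 259 in the deeper and shallower sham libraries. In the authors' deposited table, its log2 ratio was 1.00 (SE 0.38, p = 0.00788, adjusted p = 0.201). The stroke libraries lay close together and above both sham libraries, and no single stroke library carried the Il33 value. The sham libraries lay further apart than the stroke libraries, so the size of the ratio depends on the sham library used. Such separation was found in 10.5% of the 8766 genes with a mean of 10 to 400, a range below the Il33 mean of 715. Of the IL-36 genes and Il1f10, 3 had no reads, and the largest mean was 2.20, for Il36rn, which encodes the IL-36 receptor antagonist.

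Of 9 other receptors and decoys, 6 were tested, 0 were called, and the median log2 fold change was -0.39. Il18bp, the secreted protein that binds and blocks interleukin-18, had 75.2, 69.0 and 52.0 normalized reads in stroke libraries A, B and C, against 138 and 98.1 in the deeper and shallower sham libraries. Every stroke library lay below both sham libraries, as in 15.5% of the 8766 genes with a mean of 10 to 400. In the authors' deposited table, Il18bp had a log2 ratio of -0.85 (SE 0.40, p = 0.0347, adjusted p = 0.406). The neuronal accessory-like receptors Il1rapl1 and Il1rapl2 stood there at -0.44 (SE 0.42) and -0.05 (SE 0.45).

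Of 13 signalling genes that carry the receptor signal to NF-kB and MAP kinases, all 13 were tested, 0 were called and 0 had an unadjusted p below 0.05. Their median log2 fold change was 0.19. The most abundant were Tollip, an inhibitor of receptor signalling, with -0.01 (SE 0.19), and Tab2, a subunit of the TAK1 kinase complex, with 0.03 (SE 0.21), both in the authors' deposited table.

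Of 26 other inflammasome and pyroptosis genes, 20 were tested and 0 were called, with a median log2 fold change of 0.05. Casp4 (caspase-11), the protease of the non-canonical inflammasome that senses lipopolysaccharide, had 9.51, 27.4 and 29.6 normalized reads in stroke libraries A, B and C, against 5.29 and 2.73 in the deeper and shallower sham libraries. All stroke libraries lay above both sham libraries, as in 10.5% of the 8766 genes with a mean of 10 to 400. Library A was again the lowest of the stroke libraries. Casp4 had, in the authors' deposited table, a log2 ratio of 2.44 (SE 1.02, p = 0.0167, adjusted p = 0.284). The most abundant genes of this list, Nek7, a kinase that binds Nlrp3, and Brcc3, a deubiquitinase of Nlrp3, had -0.16 (SE 0.21) and -0.23 (SE 0.34) there.

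Genes known to be induced by interleukin-1, and also by other inflammatory signals, gave the called genes of the pathway. Of 20 listed, 17 were tested, 4 were called higher (Ccl2, Socs3, Ptgs2 and Icam1) and 0 lower, against 1.56% of all tested genes called in either direction. An unadjusted p below 0.05 was found for 9, all higher, against 4.84% of all tested genes with higher values. The median log2 fold change over the 17 was 1.22, against -0.02 over all tested genes. The list was chosen with earlier results of these data known, so these are not independent comparisons. Only Ccl2 was still called against a fold of 1.5. Limma on the recovered reads, which called 1 of 8766 genes, held Ccl2, Socs3 and Icam1 but not Ptgs2, and called none of these 3 (Ccl2 had the log2 fold change 5.08 and adjusted p = 0.420). An induction by interleukin-1 itself was not tested, since each of these genes responds to several signals.

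Ptgs2 (COX-2), which makes prostaglandins, had 1184, 851 and 1045 normalized reads in stroke libraries A, B and C, against 295 and 586 in the deeper and shallower sham libraries. Ptgs2 had, in the authors' deposited table, a log2 ratio of 1.22 (SE 0.34, adjusted p = 0.0297), and library A was its highest. Icam1, a leukocyte adhesion molecule, had 116, 173 and 355 against 66.7 and 51.8, and the authors' deposited table listed it at a log2 ratio of 1.85 (SE 0.52, adjusted p = 0.0311). Ccl2, the chief attractant of monocytes, and Socs3, a feedback inhibitor of cytokine signalling, had adjusted p-values of 0.000244 and 0.0113 there. In Icam1, Ccl2 and Socs3 the order of the stroke libraries was A, B, C from the lowest, as in Il1b, Il1rn, Nlrp3, Pycard, Gsdmd and Il1r1. The order differed in Ptgs2, Il1a, Il18 and Casp1. Library A was the lowest stroke library in 7 of 9 members and in 43.5% of the 8766 genes. The share of all genes with the full order was not counted.

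Il6, an inflammatory cytokine, had 1.73, 15.03 and 53.7 normalized reads in stroke libraries A, B and C, against 3.18 and 1.36 in the deeper and shallower sham libraries. Sele had 1.73, 5.30 and 201 against 2.12 and 4.09. Neither passed, and the authors' deposited table gave them adjusted p-values of 0.319 and 0.416. In both, library A did not exceed the higher sham library, whereas in Icam1 it lay above both.

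Cxcl1, a neutrophil attractant, had 6.91, 48.6 and 56.4 normalized reads after stroke, with 3.18 and 1.36 in sham. It lay just outside the threshold in the authors' deposited table, with a log2 ratio of 4.00 (SE 1.19, adjusted p = 0.0508). Cxcl10, a lymphocyte attractant, had 8.64, 16.8 and 69.0 against 6.35 and 2.73, and the authors' deposited table gave it an adjusted p of 0.262. Both exceeded the sham libraries in all stroke libraries, as in 10.5% of the 8766 genes with a mean of 10 to 400. In library A this rested on 8 reads for Cxcl1 and 10 for Cxcl10, against at most 3 and 6 in sham. Cxcl2 and Csf3, a neutrophil attractant and a neutrophil growth factor, had no reads in either sham library. Both had too low a mean for an adjusted p, with unadjusted p-values of 0.00709 and 0.0225 in the authors' deposited table. Nfkbia, the NF-kB inhibitor, had 1014, 1028 and 717 against 720 and 529, so that library C lay just below the deeper sham library, and in the authors' deposited table Vcam1, an adhesion molecule, stood at 0.11 on the log2 scale (SE 0.23).

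**Figure D5:**
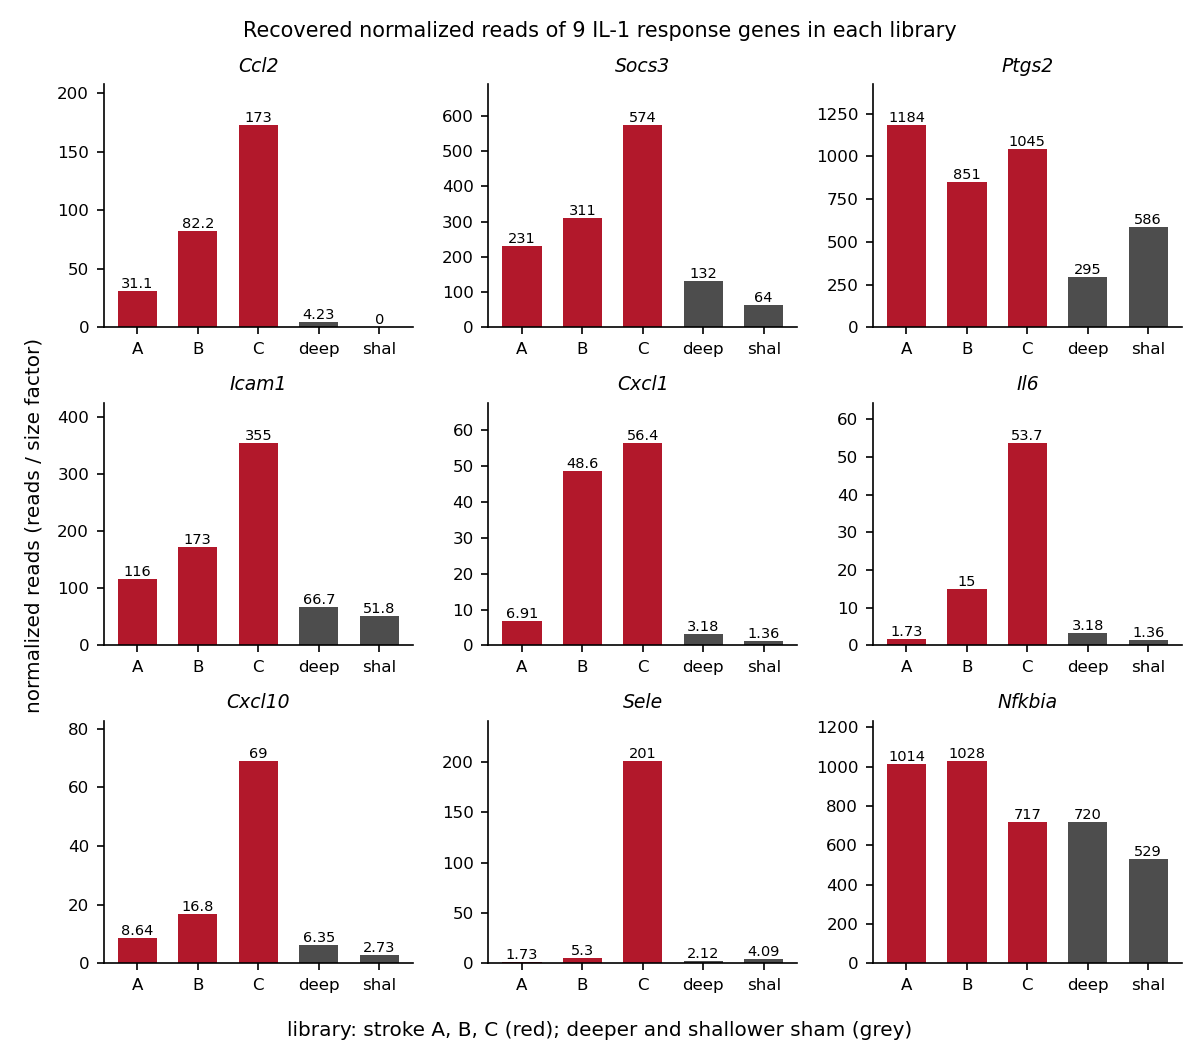
Normalized reads of 9 genes known to be induced by interleukin-1 in stroke libraries A, B and C (red) and in the deeper and shallower sham libraries (grey), each panel with its own axis from 0. Ccl2, Socs3, Ptgs2 and Icam1 passed the test, and Sele and Il6 are high in stroke library C, at 201 and 53.7, and no higher than the higher sham library in library A.

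With 3 against 2 libraries there are 10 regroupings, so an exact permutation test of a single gene cannot give a p below 0.1, and the two-sided exact permutation p of Il1r1 was 0.2 (2 times the smaller tail). The separation of Il1a and Il1r1 between the groups therefore cannot pass a threshold of 0.05 that way. The depth limits the smaller members most: Il1b rests on 77 reads in all 5 libraries, Il1a on 150 and Il1rn on 240. The counts of the members also do not tell spliced from unspliced RNA, or 1 isoform from another.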

How the data were processed

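RNA was sequenced from 5 samples, 2 sham and 3 stroke, with a kit that keeps the strand of polyadenylated RNA, per the labels' protocols. Per the submitters' processing notes, the tools were STAR 2.5.2b, featureCounts 1.5.1, DESeq2 1.14.1 and FastQC, on GRCm38; the sources used here do not give the annotation release or strand setting. The authors' deposited table holds 1 row per gene and no values per library. Its signal is the mean of read counts divided by size factors over all libraries, per the file headers. The deposited log2 fold change comes with a standard error on the same log2 scale. The deposited Wald score is their ratio. The authors' p-value and its Benjamini-Hochberg adjusted p-value complete a row, and calls were made at an adjusted p-value below 0.05. These are the tests used here; no model was refitted on all genes.

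The direction was read from genes with 1 read in 1 library: their fold change was positive at 3 values of the mean and negative at 2, so positive was taken as higher in the 3 stroke libraries. The same genes gave the size factors. Whole reads of each library were searched for next (numba 0.67.0, Python 3.11.15): a set of 5 counts was taken when it alone gave the deposited mean and standard error and a fold change within 1e-09. This gave reads for 8766 of 8771 genes with a mean of 10 to 400 (listed genes up to 1250). The search was tested on simulated reads and on means shifted on purpose. Recovered reads entered limma 3.58.1 (R 4.3.3, trend and robust variance) as log2 of normalized reads plus 1. Positions and exonic lengths are from GENCODE on GRCm38, promoters from RefSeq.

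The text names all 10 members, and of the wider lists each called gene, each gene with an unadjusted p below 0.05 and the 2 most abundant uncalled genes of each list; IL-36 genes were matched by older symbols. The members and lists were chosen with earlier results of these data known. The sources used here do not give total reads; the deposited means add up to 26479768 normalized counts. Intervals and limits for a count of 0 cover counting error only.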

Additional observations from a re-analysis of the deposited data

How the results depend on the processing

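No member was called with adjustment over every gene with a p-value, with a stricter minimum mean of 132 (3 members tested), against a fold of 1.5, at an adjusted p below 0.1 or with Holm's correction. Over all genes these settings called 187 of 31651, 142 of 11519, 27 of 17420, 401 of 17420 and 44 of 17420, in that order. At an unadjusted p below 0.05, 2 members passed, as did 1829 of 17420 genes. Limma on recovered reads, added after seeing the data, called 0 of 9 (1 at an unadjusted p below 0.05), where 1 of 8766 genes was called. With any 1 stroke library left out it called 0 of 9 and also 0 of 8766 genes, so these fits say little about the members. Fits without 1 sham library rest on a lone sham library, assumed to vary like the stroke libraries, and only their effects are given here. There Il1r1 had a log2 fold change of 1.26 without the shallower and 0.28 without the deeper sham library. Of 57 tested genes of the wider lists, 4 were called, against 2 with adjustment over every gene with a p-value (Ccl2 and Socs3), 1 against a fold of 1.5 (Ccl2), 12 at an unadjusted p below 0.05 and 0 of the 36 fitted in limma (7 at an unadjusted p below 0.05), which held 3 of the 4 and not Ptgs2. The cause of these differences was not tested. A tolerance 10 times tighter resolved reads for 1 member in place of 9. Of 81 alternative fold changes of the 9 members, 76 lay within 1 standard error of the deposited value and 5 did not: Il1b, Il1rn and Casp1 without stroke library C, and Il1r1 without either sham library. The direction of Il18, Pycard, Casp1 and Gsdmd turned when 1 library was left out, and that of 0 members turned with libraries rescaled by the median ratio of uncalled genes. No paired analysis was possible because the table has no values that can be tied to the replicate numbers of the labels.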
